A study of Equus caballus with 12 samples.

Results

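The genes described are MYH11, CNN1, SYNPO2, VIM and LMNA, which encode proteins of the contractile apparatus, the vimentin cytoskeleton and the nuclear lamina. They were chosen by symbol, and each matched 1 row of the authors' deposited table, which makes 5 of its 1341 genes. PolyA-selected RNA was sequenced in bulk from primary mesenchymal stem cells (MSCs), adherent stromal cells of the bone marrow, from 6 horses. From every horse 1 culture was grown for 72 hours in serum-supplemented standard medium (naive, 6 libraries), and 1 in the same medium to which recombinant human cytokines were added, IL-1β at 2 ng/ml and TGF-β2 at 1 ng/ml (dual licensed, 6 libraries). IL-1β drives inflammatory responses, and TGF-β2 is a growth factor that acts on matrix production and on contractile genes. The sources used here do not state age, sex or breed of the horses. The listed genes held 1672419 to 1844648 reads in the naive and 2718393 to 3424328 reads in the licensed libraries, while the full sequencing depth is unknown.

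Smooth muscle cells and myofibroblasts contract by sliding myosin filaments along actin, and transcription of many of their contractile genes is driven by serum response factor with its coactivators of the myocardin family. Vimentin is the intermediate filament protein of mesenchymal cells and gives them resistance to deformation. A-type lamins form a meshwork under the inner nuclear membrane. In other studies their amount was reported to follow the stiffness of the surroundings and the tension of the cytoskeleton. The nucleus is coupled to the cytoskeleton through nesprin proteins.

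The table lists only genes that the authors called different between licensed and naive cells, so all 5 genes are called there by construction and the direction of each is a description. Of the 5, CNN1 was higher and the other 4 were lower in the authors' deposited table, beside 670 genes listed as higher and 671 as lower. Levels are given as normalized counts, the number of reads of a gene after division by the size factor of its library. Errors come from limma fitted to log2(normalized count + 1) over all 1341 genes, with Benjamini-Hochberg adjustment and a gene counts as called where its adjusted p is below 0.05 and it changed by over 2-fold. That fit called 5 of the 5 genes, 1 higher and 4 lower, and 95.2% of the whole table, 48.4% higher and 46.8% lower. All 5 moved the same way in 6 of 6 horses, as did 93.8% of the table. For 3 of the 5, the 6 licensed and 6 naive libraries did not overlap, against 59.2% of the table. None of these shares sets the 5 genes apart from the others listed. Gene lengths were not at hand, so levels are compared between libraries and not between genes.

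MYH11 (ENSECAG00000017015), the myosin heavy chain of smooth muscle, had the largest change of the 5. Its naive level was 98.8 normalized counts in the lowest library, 122.0 at the median and 240.1 in the highest. In licensed libraries the level was 9.09 at the lowest, 22.7 at the median and 33.9 at the highest. The groups were far apart, and the naive library of horse 5 stood above the other naive libraries, of which the next reached 150.3. MYH11 fell from 139.2 ± 52.7 to 22.4 ± 9.89 normalized counts (mean ± SD, n = 6), which is -2.64 ± 0.34 on the log2 scale (limma estimate ± SE, adjusted p = 1.40e-05). The authors' deposited table has -2.63 for MYH11, which ranked 73 by size among the 671 genes listed as lower. The median of those 671 genes in the authors' deposited table was -1.48. The size of the fall differed between horses, from -1.79 on the log2 scale in horse 6 to -3.91 in horse 1, and without horse 1 the mean change was -2.39.

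Counting error weighs on the licensed values of MYH11. Its lowest library, the licensed one of horse 1, held 9 reads, for which the exact Poisson interval at 95% is 4.12 to 17.1 reads, and its highest, the naive one of horse 5, held 231. The interval covers counting error only. With 10 in place of 1 added before taking logarithms, the log2 fold change was -2.20. In human, MYH11 overlaps a gene on the opposite strand, and the use of strand in counting is not given in the sources used here, so reads of such a pair could not be told apart. In these bulk samples fewer cells with a transcript and less of it per cell cannot be told apart, for MYH11 or for any gene below.

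CNN1 (ENSECAG00000014489) encodes basic calponin, which binds actin and restrains the myosin motor in smooth muscle, and was the member that rose. Naive libraries held 286 normalized counts at the lowest, 950.0 at the median and 1148 at the highest. Licensed libraries held 965 at the lowest, 2670.0 at the median and 3213 at the highest. The groups overlapped through horse 1, whose CNN1 level was the lowest in both. Its licensed library, at 965, lay within the naive range of the other horses, which began at 668. CNN1 rose from 844 ± 323 to 2482 ± 786 normalized counts (mean ± SD, n = 6), a log2 fold change of 1.59 ± 0.36 (SE, limma adjusted p = 0.00107). Without horse 1 the means were 956 ± 191 and 2786 ± 287 (n = 5), and the mean log2 change, 1.56, was close to that with it. Horse 4 had the largest rise, 2.27 on the log2 scale, and horse 5 the smallest, 1.10. In the authors' deposited table CNN1, at 1.56, ranked 356 of the 670 genes listed as higher.

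SYNPO2 (ENSECAG00000018218) encodes synaptopodin 2, or myopodin, an actin-binding protein of the Z-disc and of stress fibres that also takes part in the removal of damaged filamin. Its naive level was 335 normalized counts at the lowest, 1062 at the median and 2053 at the highest. Its licensed level was 70.6 at the lowest, 329 at the median and 472 at the highest. The groups overlapped. Horse 6 was lowest and horse 1 highest in both groups, and the licensed library of horse 1 lay above the naive library of horse 6. SYNPO2 fell from 1043 ± 608 to 285 ± 151 normalized counts (mean ± SD, n = 6), a log2 fold change of -1.89 ± 0.51 (SE, limma adjusted p = 0.00329).

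Within single horses the fall of SYNPO2 was far more even than these standard deviations. The naive levels spanned 6.13-fold and the licensed levels 6.68-fold from the lowest to the highest horse, yet the change lay between -2.23 and -1.63 on the log2 scale in all 6. The SD of the change was 0.24, beside 0.94 for the naive and 1.04 for the licensed log2 level. An SD of the change as small as that was not rare, with 171 of the 1341 listed genes, SYNPO2 included. With the horse as a term in the paired model the SE of the SYNPO2 change went from 0.51 to 0.12, which is 4.22 times smaller. The same ratio had a median of 1.47 over the 1341 listed genes, and it was as large as that of SYNPO2 in 7 of them, SYNPO2 included.

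**Figure D1:**
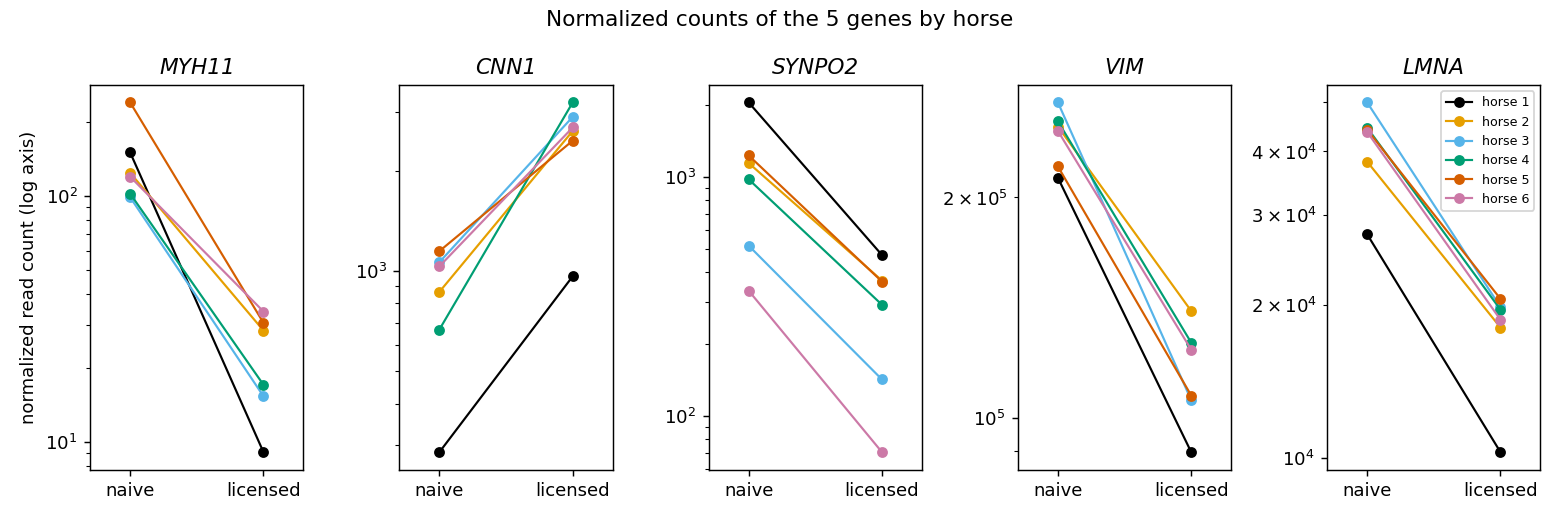
Normalized read count (log axis, 1 scale per panel) of each gene in the naive and the licensed library of each of the 6 horses, joined by a line per horse. The lines of SYNPO2 run nearly parallel over a 6.13-fold range of naive levels, and horse 1 (black) is lowest in both groups for CNN1, VIM and LMNA.

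The 3 contractile genes thus did not move as a block. The change of CNN1 exceeded that of MYH11 by 4.24 ± 0.87 on the log2 scale (mean ± SD, 6 of 6 horses) and that of SYNPO2 by 3.48 ± 0.43. Both differences follow from the listing of CNN1 as higher and of the others as lower, and are given without a test. Between the genes that fell, MYH11 changed more than SYNPO2 in 5 of 6 horses, with a mean difference of -0.75 ± 0.74 (SD), about as large as its spread.

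VIM (ENSECAG00000004216) encodes vimentin. Naive libraries held 212797 normalized counts at the lowest, 248292 at the median and 269699 at the highest. Licensed libraries held 89745 at the lowest, 115569 at the median and 139927 at the highest. The groups did not overlap, and horse 1 was lowest in each. VIM fell from 242290 ± 21513 to 115530 ± 17992 normalized counts (mean ± SD, n = 6), a log2 fold change of -1.08 ± 0.12 (SE, limma adjusted p = 5.43e-06). Reads of VIM made up 13.3 ± 1.16% of all reads on listed genes in naive and 4.18 ± 0.88% in licensed libraries. This share also moves with the sum over listed genes, which on the normalized scale grew 1.37-fold to 1.76-fold from the naive to the licensed culture of a horse.

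VIM lay near the bound of the list. Its log2 fold change in the authors' deposited table, -1.07, ranked 609 by size among the 671 genes listed as lower, and the smallest listed change was 1.001 in size. In single horses it ran from -1.35 in horse 3 to -0.84 in horse 2, and in horses 2 and 6 it was under 2-fold. On recovered reads without any scaling it was -0.94 (adjusted p = 5.87e-05), which is under 2-fold, and with TMM scaling over the listed genes it was -1.32.

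LMNA (ENSECAG00000011097) encodes lamins A and C. Its naive level was 27493 normalized counts at the lowest, 43930 at the median and 49957 at the highest. Its licensed level was 10247 at the lowest, 19107 at the median and 20517 at the highest. The groups did not overlap, and both libraries of horse 1 stood below the rest. The next lowest held 38200.3 in naive and 18020 in licensed cultures. LMNA fell from 41345 ± 7743 to 17794 ± 3799 normalized counts (mean ± SD, n = 6), a log2 fold change of -1.23 ± 0.19 (SE, limma adjusted p = 6.43e-05). Without horse 1 the means were 44116 ± 4168 and 19304 ± 973 normalized counts (n = 5), and the change was -1.19.

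The fall of LMNA was the most even of the 5 across horses, from -1.42 in horse 1 to -1.08 in horse 2, with an SD of 0.13 on the log2 scale. The corresponding SD was 0.19 for VIM, 0.24 for SYNPO2, 0.40 for CNN1 and 0.74 for MYH11. Over the 1341 listed genes the median SD of the change was 0.50, and 28 genes, LMNA included, had one as small as that of LMNA. Among the 278 listed genes with a mean of at least 1000 normalized counts, where counting error is small, the median was 0.34 and LMNA was 1 of 12. LMNA fell more than VIM in 5 of 6 horses, by 0.15 ± 0.10 on the log2 scale (SD).

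**Figure D2:**
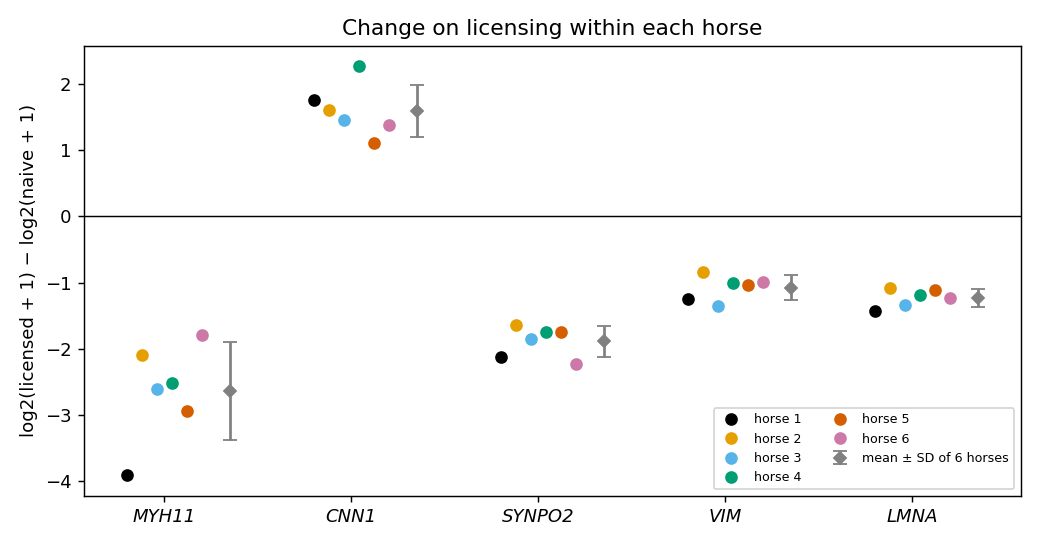
Change of each gene within each horse, as log2(licensed + 1) minus log2(naive + 1) of normalized counts, with the mean ± SD of the 6 horses in grey. All CNN1 points lie above 0 and all others below it, and the spread is widest for MYH11 (SD 0.74) and narrowest for LMNA (SD 0.13).

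Selection of the table by adjusted p favoured genes whose spread is small beside their change, so medians over it describe listed genes only. It fixed the mean direction of each gene but not which horses were high or low. Hence 2 kinds of relation across the 6 horses were tested. The first asked whether a horse with a high naive level of a gene also has a high licensed level. For SYNPO2 it did, with Pearson's r of 0.98 (exact permutation test over all pairings, two-sided, p = 0.00556, adjusted over the 5 genes 0.0278). Spearman's rho for SYNPO2 was 0.94 (exact permutation p = 0.0167, adjusted 0.0833), and r without horses 3 and 6, the farthest from the median, was 0.95. For LMNA r was 0.95 and rho 0.83 (exact permutation p = 0.0222 and 0.0583, adjusted 0.0556 and 0.146). The r of LMNA was 0.69 without horse 1 alone and 0.20 without horses 1 and 2, so the relation rests on those horses.

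In CNN1 a similar r of 0.85 had an exact permutation p of 0.306 (adjusted 0.382) and a rho of 0.09 (exact permutation p = 0.919). Without horses 1 and 4 its r was -0.15, and the order of the other horses in naive cultures was not kept in licensed ones. VIM gave r of 0.58 and rho of 0.37 (exact permutation p = 0.244 and 0.497), and MYH11 0.24 and 0.20 (0.689 and 0.714). Both depended on single horses. The r of VIM was -0.83 without the 2 farthest, horses 1 and 5, and 0.93 without horse 3 alone, and that of MYH11 was -0.49 without horses 3 and 5. The median r over the 1341 listed genes was 0.65, and 24 genes, SYNPO2 included, had one as high as that of SYNPO2. With 6 horses the smallest p that pairings can give is 0.00278. With 5 horses it is 0.0167, and a gene that passes alone among the 5 cannot go below an adjusted p of 0.0833, so these tests with 1 horse left out say nothing about stability. In them r of SYNPO2 lay between 0.97 and 1.00, and SYNPO2 missed the threshold without horse 1, 2, 3, 4 or 6 and passed it together with LMNA without horse 5.

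**Figure D3:**
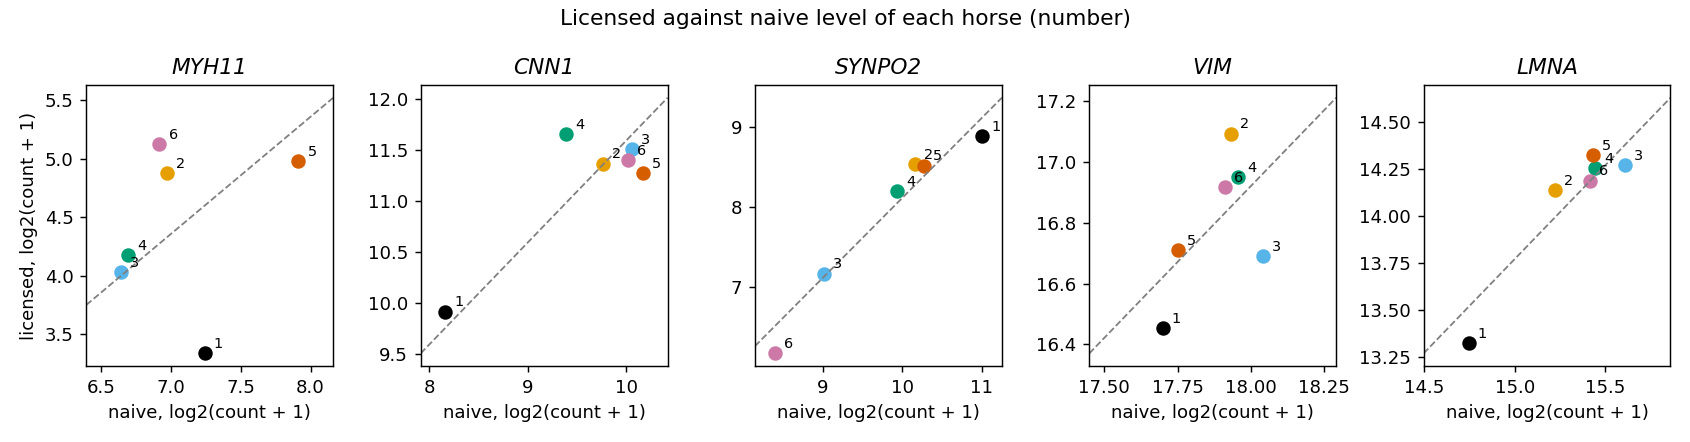
Licensed against naive level of each gene as log2(normalized count + 1), 1 numbered point per horse, with a dashed line at the mean change of that gene. The SYNPO2 points follow the line (r = 0.98). Horse 1 is at the lower left in CNN1 and LMNA, where r goes from 0.85 to -0.76 and from 0.95 to 0.69 without it.

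The second relation asked whether the sizes of the changes go together, over the 10 pairs of genes. None of the 10 passed the exact permutation test, with 0 at an unadjusted p below 0.05. The nearest was VIM with LMNA, with r of 0.85 and rho of 0.71 (exact permutation p = 0.0583 and 0.136, adjusted 0.583 and 0.454), and r was 0.48 without horses 1 and 3. SYNPO2 with LMNA had r of 0.65 and rho of 0.77 (exact permutation p = 0.178 and 0.103, adjusted 0.625 and 0.454) and r of 0.88 without horses 1 and 6. MYH11 with SYNPO2 had r of 0.14 and rho of 0.09, and CNN1 with MYH11 r of -0.10 and rho of -0.09 (exact permutation p from 0.744 to 0.919, adjusted 0.914 for each r and 1 for each rho). Without horses 1 and 6 these r were 0.64 and 0.45. The r of MYH11 with SYNPO2 was -0.55 without horse 1 and 0.93 without horse 6, so no single value describes that pair. With 6 horses these tests can miss all but the closest relations, so they do not show that the changes were unrelated.

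Around the 5 genes, 6 lists of related genes were examined, chosen with earlier results of these data known. The first had 38 contractile genes of smooth muscle, of which 6 were in the table. Beside CNN1, CSRP2 (ENSECAG00000015606), a LIM-domain protein of smooth muscle, rose, from 27.9 ± 10.4 to 776 ± 323 normalized counts (mean ± SD, n = 6; log2 fold change 4.74 ± 0.30, limma adjusted p = 5.95e-08). Its lowest licensed library, 533, stood far above its highest naive library, 40.7. Beside MYH11 and SYNPO2, HSPB6 (ENSECAG00000039018), a small heat shock protein of smooth muscle relaxation, fell from 12171 ± 2900 to 4112 ± 415 normalized counts. DMPK (ENSECAG00000016750), a kinase that acts on myosin phosphatase, went from 552 ± 198 to 213 ± 44.1, a log2 fold change of -1.29 ± 0.29. Of the 6 listed contractile genes, 2 rose and 4 fell, in a table of which 48.4% was called higher and 46.8% lower. Their median log2 fold change in the authors' deposited table was -1.47. Of a list of 11 genes around calponin, synaptopodin and the myosin heavy chains, the table held only CNN1, SYNPO2 and MYH11.

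Of 15 regulators around serum response factor and myocardin, 4 were in the table. Of these, 2 rose and 2 fell, in a table of which 48.4% was called higher and 46.8% lower. MYOCD (ENSECAG00000025166), the coactivator of serum response factor in smooth muscle, went from 12.5 ± 3.81 to 33.2 ± 22.6 normalized counts and was higher in 6 of 6 horses. The log2 fold change of MYOCD, 1.10 ± 0.45 (limma adjusted p = 0.0308), missed the call without horse 1, 2, 3 or 5 (1.10, 1.19, 0.88 and 0.99, adjusted p = 0.0568, 0.0507, 0.0806 and 0.0890). It also missed it with TMM scaling, at 0.88 (adjusted p = 0.0791), and with a pseudocount of 10, where 0.79 is under 2-fold (adjusted p = 0.0258). GATA6 (ENSECAG00000023279), a transcription factor of vascular smooth muscle among other tissues, went from 18.5 ± 24.4 to 293 ± 368 normalized counts, with 960.2 in the licensed library of horse 1 and 24.7 in that of horse 6. Without horse 1 the licensed mean of GATA6 was 159 ± 189 (n = 5). Its naive level was at or near 0 in horses 3, 5 and 6 (0, 2.08 and 2.07), so the size of its log2 fold change depends on the pseudocount, with 4.21 ± 1.07 at 1 (SE, limma adjusted p = 0.00234) and 2.92 at 10. KLF4 (ENSECAG00000010613), which represses smooth muscle genes in mouse, fell from 1126 ± 183 to 473 ± 143, and FHL1 (ENSECAG00000025020), a LIM-domain protein of muscle, from 3276 ± 544 to 1378 ± 454.

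Of 21 intermediate filament genes and linkers, 5 were in the table. Of these, 2 rose and 3 fell, beside 48.4% called higher and 46.8% called lower in the whole table. SYNM (ENSECAG00000000487), synemin, which needs vimentin or desmin as a partner to form filaments, fell with VIM and LMNA, from 322 ± 122 to 124 ± 44.0 normalized counts (log2 fold change -1.33 ± 0.36, limma adjusted p = 0.00347). As for CNN1, VIM and LMNA, horse 1 was lowest for SYNM in both groups, at 106 and 55.5. KRT8 (ENSECAG00000021775), a keratin of simple epithelia, rose from 9.78 ± 7.89 to 65.3 ± 82.4. Its licensed mean was 32.9 ± 25.3 without horse 4 (n = 5), which held 227. INA (ENSECAG00000032667), a filament protein of neurons, rose from 9.21 ± 5.36 to 22.0 ± 14.6. The INA call (log2 fold change 1.14 ± 0.48, limma adjusted p = 0.0346) was lost without horse 2, 5 or 6 (1.18, 1.19 and 1.09, adjusted p = 0.0659, 0.0659 and 0.0769). It was also lost with TMM scaling, at 0.92 (adjusted p = 0.0891), and with a pseudocount of 10, where 0.67 is under 2-fold (adjusted p = 0.0336).

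The 21 genes of the nuclear lamina and envelope had 2 members in the table, LMNA and SYNE3, and both fell. Of the whole table, 46.8% was called lower. SYNE3 (ENSECAG00000015206) encodes nesprin-3, which sits in the outer nuclear membrane and ties the nucleus to intermediate filaments through plectin. It fell from 1936 ± 820 to 417 ± 97.4 normalized counts, a log2 fold change of -2.16 ± 0.24 (limma adjusted p = 4.65e-06), and its groups did not overlap. Of 17 myofibroblast genes 7 were in the table, of which 6 rose and 1 fell, beside 48.4% and 46.8% of the whole table, with a median log2 fold change in the authors' deposited table of 1.75. COMP (ENSECAG00000000336), COL3A1 (ENSECAG00000024769) and FAP (ENSECAG00000011790) rose by 3.27, 2.15 and 2.43 on the log2 scale, and S100A4 (ENSECAG00000008221), a calcium-binding protein of motile cells, fell by 2.13. Listed genes alone are counted in all 6 lists, so their other members were not analysed here.

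**Figure D4:**
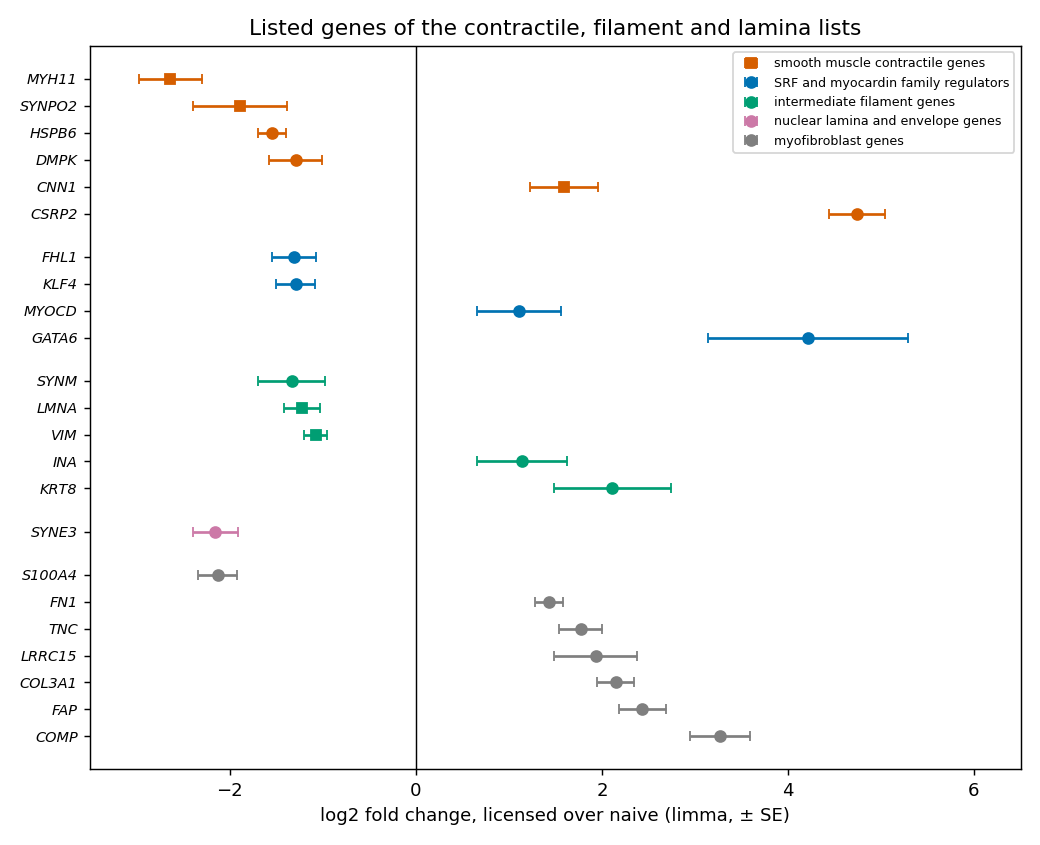
Limma log2 fold change (licensed over naive, ± SE, 12 libraries) of all listed genes of 5 of the lists, coloured by list, with squares for the 5 genes described here and each gene drawn under the first list that holds it. Contractile genes lie on both sides of 0, from MYH11 at -2.64 to CSRP2 at 4.74. The lamina gene LMNA and the nuclear envelope gene SYNE3 lie below it.

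Markers of other cells cannot check the labelled cell type here, because only genes called different between the groups are listed. An unlisted marker has no values and could be high or low in both groups. The table held none of 8 endothelial, 12 haematopoietic and 10 skeletal muscle markers, 1 of 9 MSC surface markers and 1 of 9 markers of pericytes and vascular smooth muscle. The MSC marker THY1 (ENSECAG00000009966) went from 4625 to 31119 normalized counts across naive libraries to 298 to 4743 across licensed ones. MCAM (ENSECAG00000013036), a surface protein of pericytes, fell from 502 ± 183 to 190.4 ± 40.1 normalized counts, in the same direction as MYH11. The part of pericyte-like cells in the fall of MYH11 was not tested.

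For each of the 5 genes, the listed genes with the most similar deviations from the group means over the 12 libraries were sought among 850 others with a symbol and a mean of at least 50 normalized counts. These likenesses describe differences between horses after licensing has been taken out, and the libraries share horses. CDC42EP3, an effector of the GTPase CDC42, was nearest to MYH11 (r = 0.84), followed by the tubulin gene TUBE1 (r = 0.81). Unlike MYH11, TUBE1 was listed as higher in the authors' deposited table, at 1.02. PPFIA4 and MGARP were nearest to CNN1 (both r = 0.94), although both were listed as lower in the authors' deposited table, at -1.23 and -2.12. ADA, adenosine deaminase, and the Wnt receptor gene FZD8 were nearest to SYNPO2 (r = 0.89 and 0.87). MLPH, melanophilin, was among the nearest to VIM (r = 0.88). The nearest to LMNA were MTMR11 and PAM, an enzyme that amidates peptides (r = 0.97 and 0.96). Horse 1 was lowest in both groups for CNN1 and for LMNA. These r were not computed without horse 1, so its part in them was not tested.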

How the data were processed

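Bulk RNA-seq libraries of 6 naive and 6 licensed MSC cultures were used, paired by the horse number in the sample titles. Per the submitters' processing notes, the authors used Trimmomatic 0.36, STAR 2.5.2b, featureCounts of Subread 1.5.2 and DESeq2. Genome build, annotation and use of strand were not given in the sources used here. The deposited table gives per gene the authors' log2 fold change, its p-value before and after adjustment, and a signal per library, the read count divided by a size factor. Only genes past a 2-fold change at an adjusted p of 0.05 are in it (smallest log2 size 1.001, largest adjusted p 0.0499). In each library 100% of values were whole multiples of 1 step within 0.01 reads, which gave reads. DESeq2 1.42.0 on these reads, without a term for the horse, differed from the deposited log2 fold changes by over 0.01 in 0 of 1341 genes.

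The main test was limma 3.58.1 (R 4.3.3, trend and robust empirical Bayes) on log2(normalized count + 1) over all 12 libraries without the horse. A larger added number makes changes of genes near 0 smaller. For GATA6 the change was 4.47 with 0.5 added, 4.21 with 1 and 2.92 with 10, beside 3.99 in the authors' deposited table. As the main test repeats the selection of the table, it serves for errors. Same-horse libraries come from the same animal, and their deviations from the group means correlated over the listed genes with r of 0.48 to 0.63, against -0.40 to 0.14 between horses. Correlations used exact permutation tests (scipy 1.17.1). Nothing says that a culture was repeated, so replication is 6 horses with 1 culture a condition. The p of the main fit rests on the spread of levels between horses within a group and ignores the pairing. That of the paired fit rests on the spread of changes between horses. Alternatives were the horse as a block, pseudocounts of 0.5 and 10, a minimum mean of 10, TMM scaling, no scaling, edgeR 4.0.16, DESeq2, plain empirical Bayes and leaving out each horse. Limma, edgeR and DESeq2 without the horse were also run on simulated counts with planted changes and no effect shared by libraries of a horse. That run says nothing about the paired fit. Named genes are the 5 members, up to 4 listed genes with the largest deposited change of each list, and the 2 nearest genes of each member, of which 1 is not reported here. The figure of lists shows all listed genes. The members and lists were chosen with earlier results of these data known.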

Additional observations from a re-analysis of the deposited data

Results flagged for a closer look

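In 3 of 15 groups of 6 values tested (naive levels, licensed levels and changes of the 5 genes), the gap between an extreme horse and its neighbour, as a share of the range of the group, was above Dixon's 95% critical value, which chance passes in about 1 in 20 groups. The naive MYH11 level of horse 5, 240.1 normalized counts, was followed by 150.3 and the lowest was 98.8 (gap 0.636 of the range). The licensed CNN1 level of horse 1, 965 normalized counts, lay below 2467 to 3213 in the other horses (gap 0.668). The licensed LMNA level of horse 1, 10247 normalized counts, lay below 18020 to 20517 in the other horses (gap 0.757). None of the changes within horses was flagged. The levels were tested as normalized counts and not on the log2 scale. Whether these flags hold on the log2 scale was not tested.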

How the results depend on the processing

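MYH11, CNN1, SYNPO2 and LMNA kept direction and limma call in all 15 alternatives, with log2 fold changes from -2.88 to -2.20, 1.35 to 1.73, -2.13 to -1.75 and -1.47 to -1.09. VIM kept its direction in all 15 and its call in 14, and had -0.94 on recovered reads without scaling. TMM scaling over the listed genes moved the median gene by -0.24 and no scaling by 0.14 on the log2 scale. In the paired fit (replicate block) no member changed its call, and adjusted p-values were 8.65e-06 for MYH11, 4.96e-06 for CNN1, 6.04e-07 for SYNPO2, 4.59e-06 for VIM and 1.68e-06 for LMNA. Over all alternatives the adjusted p of a member was at most 0.0108. Limma called 1276 listed genes, 649 higher and 627 lower, and 1053 to 1341 under the alternatives, with 473 higher and 660 lower under TMM scaling and 665 higher and 502 lower without scaling. Correlations were recomputed under 10 alternatives. The number of genes whose licensed level correlated with the naive level was 1 under another pseudocount or scaling and 0 to 2 with 1 horse left out. The number of correlated pairs of changes was 0 under another pseudocount or scaling. With 1 horse left out it was 0 too, but a lone pair can then reach no adjusted p below 0.167. Only several pairs passing together could then be called, so this count says nothing about any single pair. Of 30 other genes taken by the naming rule or plotted, none reversed and 24 kept the same call throughout. The exceptions were MYOCD, INA, TUBE1, MTMR11 and PAM, which lost it in some, and ADA, which the main limma fit did not call (log2 fold change -0.84, adjusted p = 0.100) and edgeR, DESeq2 and TMM scaling did. The cause was not tested. Low counts limit the precision of MYH11, MYOCD, GATA6, KRT8 and INA.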
